A study of Rattus norvegicus with 241 samples.

Results

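The genes described here were components of neurotrophin signaling, taken by symbol from every deposited table: the ligands NTF3 (neurotrophin-3) and BDNF (brain-derived neurotrophic factor), the shared low-affinity receptor NGFR (p75), and the receptor tyrosine kinases NTRK2 (TrkB) and NTRK3 (TrkC). They were 5 of 21707 genes in the series. All 5 were present in every bulk and single-cell table except that of tumor leukocytes, where BDNF was not analysed. In bulk, all that were present passed the filter on low values. In single cells the filter was applied per class, and 61 member tests remained over 20 classes. The genes were chosen by their measured levels across cell types and between TGFBRi and vehicle rats in these data, so their differences between treated and control rats and between cell types are given as a description. Tests are given for estradiol, parity and time after dosing, and for other genes of the pathway.

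Female rats received TGFBRi (LY2157299, galunisertib, a kinase inhibitor of the TGFβ receptor TGFBR1) or vehicle by gavage, at 75 mg/kg given 2 times a day for 10 days. Young ACI rats were dosed from about 35 days of age and sampled 0, 7 and 14 days after the last dose (3 rats per group). Young Sprague Dawley (SD) rats were dosed from 24 days and sampled on day 0 (4 per group), and adult virgin or parous ACI rats from 18 to 24 weeks of age (4 per group, fewer in the CD45+ fraction). A cancer set of SD rats was dosed from 21 days, received the carcinogen NMU at 50 mg/kg, and was killed 87 days later (3 rats per group); the tumor-bearing and tumor-free TGFBRi groups share the same tumor-bearing vehicle rats. A second cancer set of ACI rats was given the drug over 21 days, starting at an age of 38 days, and carried an empty or a 37 mg estradiol implant from day 60 (2 to 4 rats per group). By the labels its vehicle rats with estradiol were all tumor-bearing and those without all tumor-free. Estradiol and tumor status can therefore not be told apart in the comparison of these groups. Nor can drug and tumor status where tumor-free TGFBRi rats were set against tumor-bearing vehicle rats, in either cancer set. Cells were sorted as CD24+CD29high basal, CD24+CD29low luminal and CD45+ leukocyte fractions, and tumors as EPCAM+ and CD45+ cells. Single cells came from sorted epithelium of young ACI rats (12 libraries from 6 rats) and SD rats (18 libraries from 9 rats), and from the unsorted gland of 9 SD rats (3 vehicle, 6 TGFBRi). Each sample of a group is a separate rat in the labels, except that 4 tissue parts of 1 estradiol-treated rat were averaged. In bulk samples, fewer cells of a type and less RNA per cell cannot be told apart.

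Neurotrophins are secreted as precursors and cut by proprotein convertases such as furin. BDNF and NTF4 bind NTRK2, and NTF3 binds mainly NTRK3, while p75 binds all of them. In most tissues they are known from sensory and sympathetic nerves, from the Schwann cells that wrap those nerves, and from the smooth muscle and other target cells that nerves reach.

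A promoter window each of the ligands NTF3 and NTF4 is shown as an example, because TGFβ receptors signal through SMAD factors and both windows hold the letters of a SMAD box. The capitals mark CAGAC and its reverse complement GTCTG, the letters of a SMAD box, searched on both strands, and matches did not overlap. A match is a description, and windows of this length held the motif in 50.1% of 33469 rat promoters in the RefSeq table (GRCr8). NTF3 has 3 listed starts, of which 2 held it, and BDNF has 6, of which 2 held it. Each of these pairs of windows overlaps and shares matches, so it is not 2 separate sites, and no BDNF window and no window without a match is shown. Of the members, 2 had an entry. The NTF3 window lies at chr4:160670574-160670873 on the minus strand and the NTF4 window at chr1:105029785-105030084 on the plus strand, each 300 bases around a listed start.
NTF3: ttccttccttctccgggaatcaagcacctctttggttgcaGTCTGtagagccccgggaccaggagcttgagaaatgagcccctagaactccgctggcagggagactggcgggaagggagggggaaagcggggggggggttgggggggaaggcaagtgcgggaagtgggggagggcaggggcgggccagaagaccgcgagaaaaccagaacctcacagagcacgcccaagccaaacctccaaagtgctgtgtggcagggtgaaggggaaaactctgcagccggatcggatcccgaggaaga
NTF4: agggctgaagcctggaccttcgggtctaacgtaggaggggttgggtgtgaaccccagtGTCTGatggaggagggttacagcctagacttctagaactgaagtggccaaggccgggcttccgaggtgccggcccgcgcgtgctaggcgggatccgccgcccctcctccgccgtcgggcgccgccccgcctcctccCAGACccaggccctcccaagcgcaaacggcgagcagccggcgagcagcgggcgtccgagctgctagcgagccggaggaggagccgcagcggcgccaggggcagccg

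Bulk samples held 4194912 to 52314784 reads on genes (median 20100223), in values that the authors divided by size factors. Single-cell libraries held 563 to 16424 cells, 160052 in all. Library pairs shared at most 284 barcodes in the whole-gland set, or 2.51% of the smaller library, and no replicate pair was close enough in counts to be a repeated library. In the sorted basal fraction of young ACI vehicle rats the basal keratin gene KRT5 stood at 16839 to 22126, against 35.3 to 219 in the luminal fraction. Genes from the marker lists of other cells were also measured in the basal fraction. The Schwann cell list summed to 9826 to 18353 in the vehicle basal samples, with 8 of its 9 genes in the table. Some keratin-filtered luminal progenitor-like clusters of sorted SD rats also scored on 2 of 8 genes of this list. Its sum is therefore not a measure of Schwann cells alone.

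NTRK2, the receptor of BDNF and NTF4, was highest in stromal and perivascular cells of the unsorted gland. Levels are UMIs per 10000 UMIs of a class, summed per rat, in the 3 vehicle rats, and classes are clusters named from fixed markers. NTRK2 stood at 1.56 ± 0.13 (SD, n = 3) in pericyte-like cells, 1.42 ± 0.40 in vascular smooth muscle-like cells, 1.33 ± 0.73 in fibroblast-like cells and 0.84 ± 0.40 in Schwann-like cells, and the ranges of these neighbours overlapped. A small unnamed cluster of 402 cells led by CCL19, GREM1 and CXCL13 had the highest level, 3.14 ± 0.16, above all of them without overlap. In basal-like cells NTRK2 was near absent. A UMI was seen in 33.5% of pericyte-like cells (95% exact interval 31.6 to 35.5) and in 0.385% of basal-like cells (0.225 to 0.616), and the share in T cell-like cells, which should lack the gene, was 0.134%. The median depth was 3956 UMIs in pericyte-like cells, 7201 in basal-like cells and 2110.5 in T cell-like cells. After thinning each cell to 1000 UMIs, which left out 250 pericyte-like and 274 basal-like cells, the shares were 11.9% and 0%. The basal share was read as background, since its interval overlapped that of T cell-like cells (0.0364 to 0.342) at a greater depth. Intervals cover counting error only.

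NGFR, the p75 receptor, was highest in Schwann-like cells, at 2.504 ± 0.61 (SD, n = 3). The next class, an unnamed cluster led by CCL17, CCL22 and FSCN1, stood at 0.69 ± 0.25, and the ranges did not overlap. Pericyte-like cells followed at 0.26 ± 0.17. A UMI was present in 32.7% of Schwann-like cells (95% exact interval 28.9 to 36.6) and in 0.301% of T cell-like cells.

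NTRK3, the NTF3 receptor, was highest in vascular smooth muscle-like cells, at 0.374 ± 0.049 (SD, n = 3), above every other class without overlap. Schwann-like cells (0.096 ± 0.023) and basal-like cells (0.086 ± 0.018) came next and overlapped each other.

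NTF3 had its highest mean in vascular smooth muscle-like cells, but overlapped the next class. It stood at 0.071 ± 0.047 (SD, n = 3) there, on 25 UMIs (0.1235 when cells were clustered at Leiden resolution 1.5 in place of 0.8), and at 0.046 ± 0.052 in pericyte-like cells, on 40 UMIs. BDNF was low throughout. It was highest in lymphatic endothelial-like cells, at 0.163 ± 0.166, followed by Schwann-like cells at 0.082 ± 0.078 and fibroblast-like cells at 0.080 ± 0.058, which all overlapped. A BDNF UMI was seen in 8.89% of lymphatic endothelial-like cells (95% exact interval 6.30 to 12.1), on 56 UMIs in all, and in 0 of 2992 T cell-like cells.

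**Figure D1:**
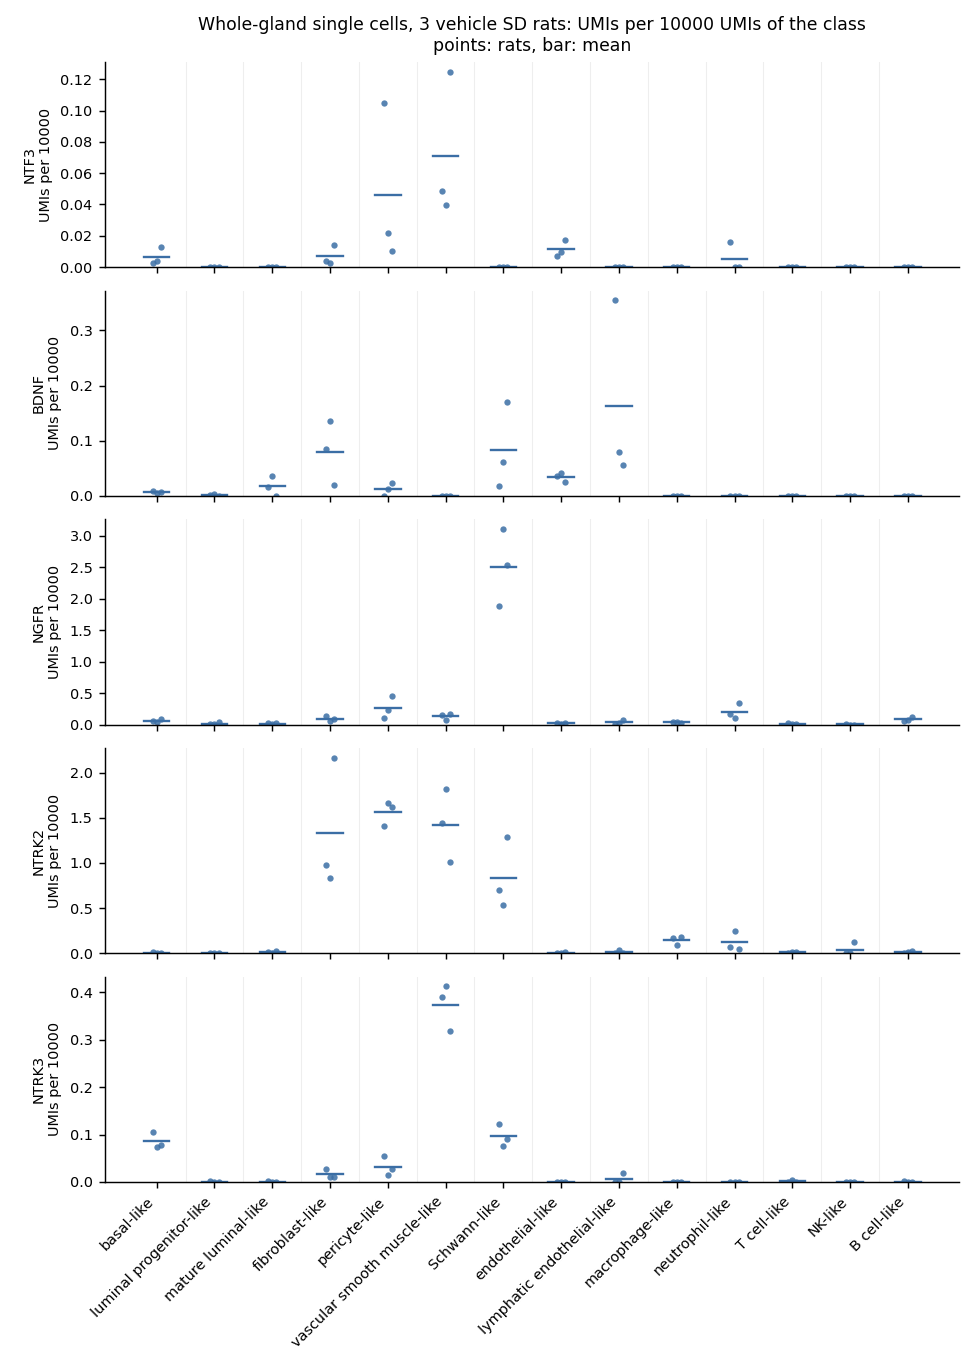
UMIs per 10000 UMIs of a class (vertical axes, linear, 1 panel per gene) in 14 named whole-gland classes (horizontal axis) of 3 vehicle SD rats; points are rats and bars are means. NTRK2 is spread over pericyte-, vascular smooth muscle- and fibroblast-like cells, whereas NGFR peaks at 2.504 in Schwann-like cells and NTRK3 at 0.374 in vascular smooth muscle-like cells.

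The sorted libraries, which the study had filtered for keratin reads, gave the epithelial side of the same genes. NTF3 stood at 0.202 ± 0.030 (SD, n = 3) in basal-like cells of vehicle ACI rats and 0.079 ± 0.051 in those of SD rats, and at 0 in mature luminal-like cells of both strains. An unnamed sorted SD cluster of 661 cells, led by FABP4, CRIP1 and SPARCL1, with vascular smooth muscle and endothelial markers, held NTF3 and NTRK3 in the vehicle rats with at least 10 of its cells, at 0.544 and 0.254 for NTF3, on 10 and 7 UMIs, and at 1.90 and 1.49 for NTRK3. NTRK3 stood at 0.725 ± 0.109 in basal-like cells of ACI rats and 0.618 ± 0.041 in those of SD rats, against 0.0046 ± 0.0013 and 0 in luminal progenitor-like cells. NTRK2 was at 0.0008 and 0.0026 in the basal-like cells of the same strains, but at 1.63 in the fibroblast-like cells of the single SD vehicle rat that had enough of them. Gland libraries used 5′ chemistry and sorted libraries 3′ chemistry, so levels are not compared between them.

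Genes with the most similar class pattern over 14 whole-gland classes, among 5843 genes, were for NTRK2 RARRES2 (Pearson r = 0.97), FXYD1 (0.96) and PLAC9 (0.96), and for NGFR IDI1 (0.91), MEGF9 (0.88) and HMGCS1 (0.86). For NTF3 they were MYL6 (0.94), EDNRA (0.94) and RBM24 (0.94). NTRK3 was most like RXYLT1 (0.89), CRISPLD2 (0.88) and PLAGL1 (0.87). BDNF, which has few UMIs, was most like APC (0.91), PLA2G2A (0.90) and EFEMP1 (0.89). The classes share libraries and depth, so these values describe the pattern only.

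In bulk samples of young vehicle rats on day 0, the log2 difference between the basal and luminal fractions of the same rats was above 0 for every member. In young ACI vehicle rats the log2 difference was 7.29 ± 0.70 (SE) for NTF3, 6.76 ± 0.43 for NTRK3, 3.35 ± 0.40 for NTRK2, 2.56 ± 1.00 for BDNF and 2.07 ± 0.42 for NGFR. In SD rats these were 4.05 ± 1.04, 7.41 ± 0.47, 4.73 ± 0.33, 4.12 ± 0.89 and 2.11 ± 0.27. The fit behind these SEs ignored the pairing of fractions by rat. With the rat as a block the SEs, in the same order of genes, were 0.76, 0.47, 0.32, 0.83 and 0.24 in ACI rats. In SD rats they were then 0.92, 0.51, 0.30, 0.81 and 0.24. Of all genes, 42.6% were called in ACI and 54.3% in SD rats (limma, adjusted p of 0.05 or less), and nothing is read from calls of the members here, since their source cells were part of the choice. For BDNF and NTF3 the order did not hold in every set. In NMU vehicle rats BDNF was 10.98, 22.5 and 0.8 in the basal and 24.0, 23.7 and 6.1 in the luminal fraction, lower in each rat, and NTF3 was 34.3 against 44.03 in 1 of them. In some adult vehicle rats BDNF was also lower in the basal fraction, such as 59.4 against 202. Single basal-like cells held almost no NTRK2. The vehicle basal samples carried fibroblast (54397 to 127936) and pericyte (1209 to 4123) marker sums, and the part of those cells in the bulk NTRK2 level was not tested.

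The treatment was first compared in the basal fraction of young ACI rats on day 0. NTRK2 was 332, 460 and 1127 in vehicle rats and 3138, 2437 and 2701 after TGFBRi, so that the groups did not overlap, with a log2 difference of 2.30 ± 0.74 (SE, n = 3 per group). BDNF was 6.0, 45.6 and 110 in vehicle rats and 151, 318 and 540 after TGFBRi, a log2 difference of 3.17 ± 1.14, again without overlap. That difference was 2.05 without the vehicle rat at 6.0 and 4.04 without the vehicle rat at 110. The treated rats at 318 and 540 had fewer reads on genes in this fraction than any vehicle rat. The rat at 540 had 4194912, the fewest of the series, and the part of depth in these values was not tested. NGFR was 1030, 1430 and 795 against 2159, 1780 and 1954, a log2 difference of 0.89 ± 0.81. NTF3 was 149, 156 and 288 against 138, 252 and 236, and NTRK3 515, 529 and 699 against 518, 920 and 808, and in both the groups overlapped.

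Of the 15643 genes in that table, 16.4% were higher without overlap and 15.7% lower, and 3.34% were called at an adjusted p of 0.05 or less. The median log2 difference over all of them was 0.30, so the members' differences are relative to a shift of that size. Limma called none of the 5 members. DESeq2 called NTRK2, and a limma fit of only these 2 groups called NTRK2 and NGFR. Nothing is read from these calls, since the genes were chosen by their difference between treated and vehicle rats. The Schwann cell list was higher in the same samples, at 9826 to 18353 in vehicle rats and 41828 to 70031 after TGFBRi, with MBP, CDH19, SCN7A and S100B among the genes higher without overlap while SOX10 (1503 to 1830 against 1218 to 1881) and GFRA3 overlapped. The fibroblast list was at 54397 to 127936 against 36453 to 510904 and the pericyte list at 1209 to 4123 against 1427 to 6512. The basal list was lower, at 106490 to 177128 against 35998 to 81536. Their part in the NTRK2, BDNF and NGFR values was not tested.

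**Figure D2:**
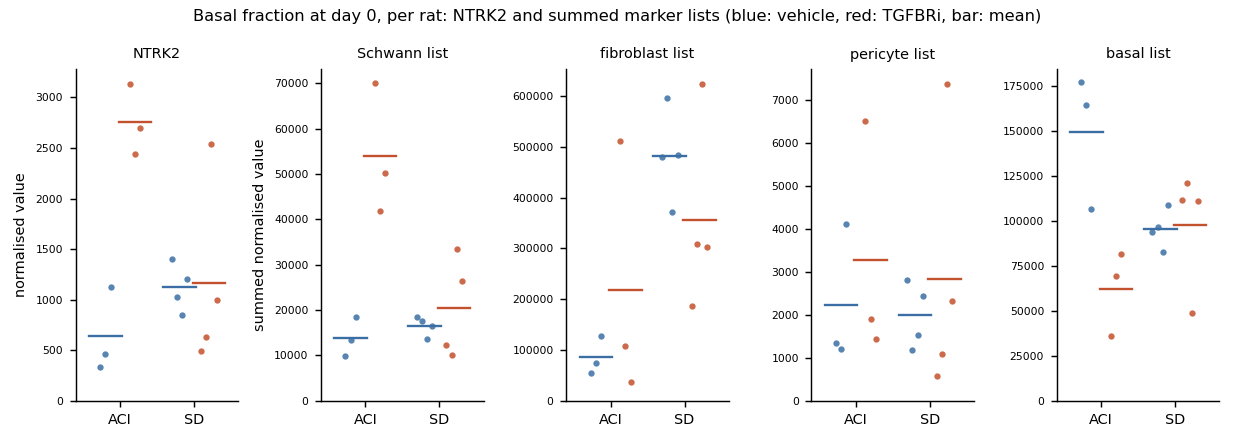
NTRK2 (first panel) and summed marker lists (other panels) in the day-0 basal fraction, as normalised values per rat on linear vertical axes; blue points are vehicle and red points TGFBRi, bars are means, with 3 rats per group in ACI and 4 in SD. NTRK2 and the Schwann list are both higher in all 3 treated ACI rats than in any vehicle rat, whereas the SD groups overlap in both.

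On day 7 NTRK2 in the ACI basal fraction was 190, 67.6 and 408 in vehicle rats and 318, 852 and 1762 after TGFBRi, with overlap (log2 difference 2.16 ± 0.74). The labels of the vehicle rat at 67.6 conflict: title and characteristics name a control, and the description of its basal and luminal samples a treated animal. Without that rat the groups still overlapped. By day 14 it was 92.2, 225 and 210 against 213, 342 and 68.96 (0.07 ± 0.74). Whether the effect differed between days was not tested.

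The luminal and CD45+ fractions of the same rats gave different patterns for NTRK2. Luminal NTRK2 was 47.8, 52.5 and 62.2 in vehicle rats and 167, 169 and 174 after TGFBRi, a log2 difference of 1.64 ± 0.76 without overlap, beside 18.0% of genes higher without overlap and 1.01% called. In the CD45+ fraction NTRK2 was 1036, 227 and 898 in vehicle rats and 39.2, 180 and 174 after TGFBRi, a log2 difference of -2.46 ± 0.73 without overlap, beside 8.79% of genes lower without overlap and 2.85% called. The fibroblast list in that CD45+ fraction was 370325 to 743616 in vehicle rats and 24245 to 151113 after TGFBRi, and the pericyte list 1408 to 2019 against 299 to 316. These stromal lists moved with NTRK2, and their part was not tested. Luminal NGFR was 357, 385 and 113 in vehicle rats and 396, 526 and 602 after TGFBRi, without overlap. NTF3 in the luminal fraction was 0.8, 0 and 0 in vehicle rats and 12.7, 2.8 and 5.0 after TGFBRi. Those NTF3 values rest on 1, 0 and 0 reads against 15, 2 and 3, too few for a separation of the groups to be read.

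In the basal fraction of SD rats on day 0 all 5 members overlapped between the groups. The labels call 2 of the 4 treated rats weak and 2 strong responders, which were fitted as 1 group. Basal NTRK2 was 1402, 1026, 852 and 1203 in vehicle rats and 496 and 631 in the weak and 2540 and 1001 in the strong responders, so that both weak responders lay below every vehicle rat. This split was not tested. The treated rat at 2540 also had the highest Schwann (33452) and pericyte (7379) lists of its group. None of 12571 genes was called (0.0%).

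In adult virgin ACI rats the basal fraction showed other members. NTF3 was 152, 196, 193 and 136 in vehicle rats and 381, 368, 191 and 232 after TGFBRi, a log2 difference of 0.75 ± 0.30, with overlap. BDNF was 62.8, 10.0, 18.7 and 59.4 against 1.3, 12.7, 7.2 and 4.2, a log2 difference of -2.32 ± 0.82, also with overlap. Here 8.73% of 13442 genes were called by limma and no member, while DESeq2 called BDNF and NTF3, and nothing is read from these calls either. The median log2 difference of all genes was -0.25. In parous rats NGFR was 4742, 4480, 5400 and 4824 in vehicle rats and 3744, 4842, 1241 and 2751 after TGFBRi (-0.79 ± 0.34), and NTRK2 was 858, 2048, 443 and 904 against 2842, 3634, 2951 and 904 (1.32 ± 1.47).

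**Figure D3:**
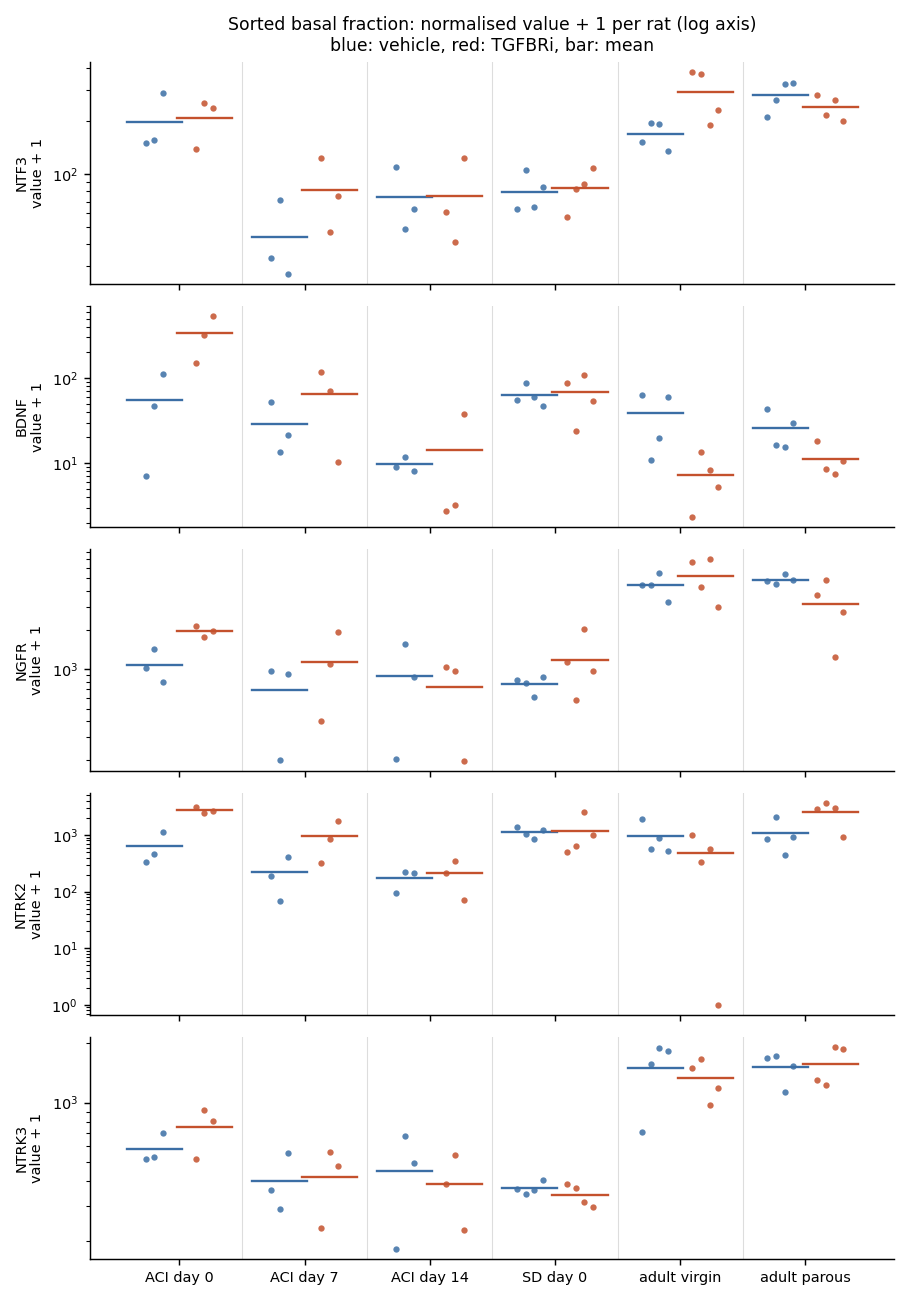
Normalised value + 1 of each member in the sorted basal fraction (vertical axes, log scale, 1 panel per gene) for 6 sets of rats on the horizontal axis; blue points are vehicle rats, red points TGFBRi rats and bars are means. NTRK2 separates the groups in ACI rats on day 0, at 332 to 1127 against 2437 to 3138, and overlaps in the other 5 sets.

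After NMU, NGFR in the basal fraction was 1627, 1834 and 2907 in vehicle tumor-bearing rats and 498, 1399 and 1188 in tumor-bearing TGFBRi rats, without overlap (log2 difference -1.13 ± 0.38, beside 12% of genes lower without overlap). Against the same vehicle rats the tumor-free TGFBRi rats stood at 1568, 1050 and 1681, with overlap. With estradiol, NTRK2 in CD45+ cells was 13.7, 46.6, 23.4 and 12.5 in vehicle rats and 0 in both tumor-bearing TGFBRi rats. In that comparison 5.06% of genes were lower without overlap. With each 0 set to a floor of 3 reads (3.1 and 4.4 in these units), the group means differed 6.42-fold. NTRK3 in CD45+ cells of the NMU set was 0, 8.4 and 11.1 in vehicle rats and 140, 28.1 and 54.3 in tumor-bearing TGFBRi rats (log2 difference 3.65 ± 1.42), beside 6.35% of genes higher without overlap. In whole-gland vehicle rats NTRK3 had 1 UMI in T cell-like, 1 in B cell-like and 0 in NK-, macrophage- and neutrophil-like cells. The part of other cells in these CD45+ values of NTRK2 and NTRK3 was not tested. In NMU tumors the EPCAM+ cells held BDNF at 76.5, 89.99 and 59.04 against 92.8, 90.8 and 81.8, with overlap.

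Over all 32 bulk comparisons of TGFBRi with vehicle, none of 159 member tests was called by limma or by edgeR and 5 by DESeq2, and 16 had an unadjusted p under 0.05. Over all genes limma called 0.588% of the tests in these comparisons, and 8.61% had an unadjusted p under 0.05.

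Comparisons that had not guided the choice of genes were tested. Over 40 member tests of estradiol, parity and time after dosing, 0 were called by limma, edgeR or DESeq2, with 5 at an unadjusted p under 0.05 and a smallest limma adjusted p of 0.368, beside 0.283% of all gene tests called and 9.06% at an unadjusted p under 0.05. NTF3 in the basal fraction was 149, 156 and 288 on day 0 and 108.4, 47.9 and 62.5 on day 14 in vehicle ACI rats (log2 difference -1.44 ± 0.54, limma adjusted p = 0.38), beside 10.1% of genes lower without overlap. It was 152, 196, 193 and 136 in virgin and 212, 264, 326 and 328 in parous vehicle rats (0.73 ± 0.30, limma adjusted p = 1), also without overlap, as for 1.32% of genes. NGFR in CD45+ cells of vehicle rats was 1146, 522, 867 and 495 with estradiol and 971, 1947, 1593 and 914 without, with overlap (log2 difference -0.85 ± 0.39, limma adjusted p = 0.40). The rats with estradiol were all tumor-bearing and those without tumor-free, so the estradiol tests cannot tell the implant from tumor status.

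Whole-gland single cells placed the treatment differences in classes of the unsorted gland. Differences are from edgeR on UMIs summed per rat and scaled by TMM, so a sign can differ from that of the mean levels. In basal-like cells NTF3 was 0.0025, 0.0040 and 0.0125 UMIs per 10000 in the vehicle rats, on 14 UMIs, and 0.038 to 0.172 in the 6 treated rats, on 296 UMIs, a log2 difference of 4.15 ± 0.64 without overlap. Most vehicle basal-like cells (83.2%) lay in 1 cluster and most treated ones (81.02%) in another, both named basal. NTF3 was also higher without overlap in vascular smooth muscle-like cells, at 0.040 to 0.125 against 0.177 to 0.399 (1.58 ± 0.40, and 2.55 without the third vehicle rat), and in endothelial-like cells, at 0.007 to 0.018 against 0.022 to 0.055 (1.31 ± 0.42). Of all genes, 14.8% were higher without overlap in basal-like, 6.3% in vascular smooth muscle-like and 15.8% in endothelial-like cells.

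BDNF was higher in endothelial-like cells, at 0.026 to 0.041 in vehicle rats and 0.054 to 0.141 in treated rats (log2 difference 1.26 ± 0.35), without overlap. NTRK3 was higher without overlap in basal-like and vascular smooth muscle-like cells, at 0.073 to 0.106 against 0.111 to 0.217 in the first (0.93 ± 0.22) and at 0.319 to 0.412 against 0.429 to 0.885 in the second (0.74 ± 0.24). NGFR in basal-like cells was 0.036 to 0.088 against 0.075 to 0.171 (0.95 ± 0.31), with overlap.

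NGFR was lower in Schwann-like cells, its main class. It stood at 1.88, 3.10 and 2.53 in vehicle rats and at 0.97 to 1.6 in treated rats, with no overlap (log2 difference -1.14 ± 0.19, n = 3 and 6), beside 5.15% of genes lower without overlap in that class. NTRK2 was higher without overlap in pericyte-like cells, at 1.41, 1.66 and 1.62 against 2.0 to 3.4 (0.58 ± 0.17), beside 12.3% of genes higher without overlap. In Schwann-like cells NTRK2 was 0.530 to 1.29 against 1.16 to 2.32 (0.83 ± 0.27, and 1.39 without the third vehicle rat), with overlap. In macrophage-like cells NTRK2 was lower, at 0.096 to 0.177 against 0 to 0.091, on 85 and 20 UMIs, beside 1.71% of genes lower without overlap. Fibroblast-like cells overlapped, at 0.838 to 2.17 against 1.04 to 1.68.

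Over the whole gland, 9 of 45 member tests were called higher and 2 lower by edgeR at an adjusted p of 0.1 or less, beside 20.6% of all gene tests in the 14 classes. Of all genes, 44.9% were called in basal-like cells, 31.9% in endothelial-like, 24.3% in pericyte-like, 16.7% in vascular smooth muscle-like, 10.8% in Schwann-like and 3.53% in macrophage-like cells. Nothing is read from the count of members, which were chosen for this effect.

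**Figure D4:**
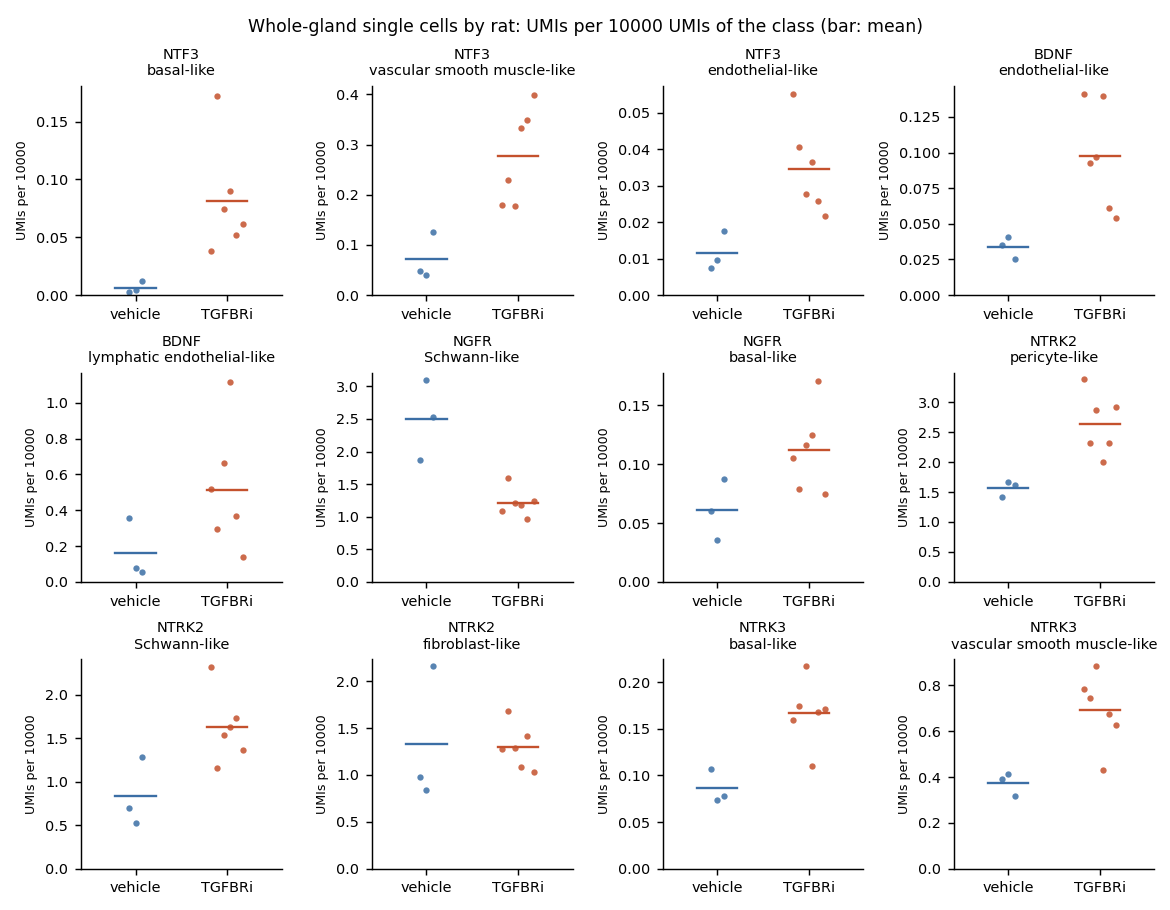
UMIs per 10000 UMIs of the class (vertical axes, linear) per rat in vehicle (3) and TGFBRi (6) rats for 12 pairs of gene and whole-gland class; bars are means. The groups separate in every panel but BDNF in lymphatic endothelial-like, NGFR in basal-like, and NTRK2 in Schwann-like and fibroblast-like cells, where they overlap. The panels were chosen with these values known, so the number that separate is no result.

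Sorted libraries gave other values, and whether the sets differ was not tested. In basal-like cells of ACI rats NTF3 was 0.178 to 0.235 against 0.146 to 0.156 (log2 difference -0.19 ± 0.13) and NTRK3 0.599 to 0.797 against 0.752 to 0.893 (0.42 ± 0.12). In basal-like cells of SD rats NTF3 was 0.046 to 0.137 against 0.026 to 0.108 (-0.43 ± 0.46), with overlap, on 171 and 289 UMIs. The higher NTF3 of treated whole-gland basal-like cells was thus not seen in sorted cells of the same strain. In SD rats basal NTRK3 was 0.594 to 0.666 against 0.174 to 0.504 (-0.58 ± 0.23). In that set 98.3% of an unnamed cluster of 3432 cells came from 1 TGFBRi rat, and the basal-like class of that rat held 219 cells. These classes had 34.2% (ACI) and 36.7% (SD) of genes called.

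Other genes of the pathway were tested over all genes. In bulk, 3 of 966 pathway tests were higher and 11 lower (limma, adjusted p of 0.05 or less), beside the backgrounds above. NTF4, the other ligand of NTRK2, was 190, 205 and 248 in vehicle and 78, 97 and 80 in TGFBRi ACI basal samples on day 0 (log2 difference -1.33 ± 0.35, limma adjusted p = 0.049). That call was lost without any 1 of 5 of the 6 rats (limma adjusted p 0.0802 to 0.157), with edgeR (adjusted p = 0.0878) and with a pseudocount of 0.5 (limma adjusted p = 0.0559). The basal marker list was lower in the same samples (106490 to 177128 against 35998 to 81536), and its part in the NTF4 difference was not tested. NTF4 was also lower in basal-like cells of sorted ACI rats, 0.261 to 0.336 against 0.151 to 0.223 (-0.45 ± 0.14, edgeR adjusted p = 0.033), and in those of sorted SD rats, 0.167 to 0.216 against 0.0677 to 0.128 (-0.55 ± 0.22, edgeR adjusted p = 0.076), but was not called in the whole gland (0.12 ± 0.21, edgeR adjusted p = 0.69). In the adult virgin basal fraction 6 of 31 pathway genes fell and 1 rose (limma), beside 8.73% of all genes called. SORCS2, a sortilin-family receptor that partners p75, had a log2 difference of -1.97 ± 0.34 (adjusted p = 0.0032) and KIDINS220, a scaffold of Trk receptors, one of -1.83 ± 0.33 (adjusted p = 0.0041). The Trk adaptor FRS2 fell, with a log2 difference of -1.32 ± 0.30 (adjusted p = 0.015), while its relative FRS3 rose, with one of 1.63 ± 0.41 (adjusted p = 0.022). The phospholipase PLCG1 had a log2 difference of -0.82 ± 0.21 (adjusted p = 0.024), and the convertases PCSK6 and PCSK7 also fell. PCSK6 was widely spread, at 513 ± 580 (SD) in vehicle rats and 24.5 ± 32.5 after TGFBRi. The part of other cells in these adult basal differences was not tested. In the ACI CD45+ fraction on day 0 MAGED1, PCSK5 and PCSK6 fell, beside 2.85% of all genes called. The fibroblast list (370325 to 743616 against 24245 to 151113) and the pericyte list (1408 to 2019 against 299 to 316) were lower in the same samples, and their part was not tested. The convertase PCSK5 rose in the luminal fraction of ACI rats on day 0 (log2 difference 5.20 ± 1.05, limma adjusted p = 0.037). Limma called 153 genes in that comparison and edgeR 3. PCSK5 itself had a mean of 171 in the basal and 2.6 in the luminal samples of vehicle ACI rats on day 0. Other genes higher in the basal fraction went both ways in the treated luminal samples. NTRK2 and NGFR were higher without overlap, as given above, and so was NTF3 on few reads. NTRK3 had a higher mean there (28.2 ± 21.0 against 4.4 ± 1.1, SD), with overlap. NTF4 was lower there (23.7 ± 6.0 against 31.7 ± 3.2). The part of basal cells in the PCSK5 difference was not tested. FURIN, another convertase, had a log2 difference of 1.84 ± 0.42 (limma adjusted p = 0.042) in the luminal fraction of the NMU set. It was higher in tumor-free TGFBRi rats than in tumor-bearing vehicle rats, beside 0.948% of all genes called. Drug and tumor status cannot be told apart in that comparison.

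In single basal-like cells the pathway list had 5 higher and 1 lower of 26 tested in sorted ACI rats, 5 and 7 of 27 in sorted SD rats, and 6 and 6 of 27 in the whole gland (edgeR, adjusted p of 0.1 or less). Over all genes 34.2%, 36.7% and 44.9% were called in these sets, and nothing particular to the list is read from its counts. BEX3, a p75-associated adaptor, was higher in all 3, with log2 differences of 0.37 ± 0.09 (adjusted p = 0.0092), 1.10 ± 0.22 (adjusted p = 0.0070) and 0.79 ± 0.20 (adjusted p = 0.0085) in the order of those sets. In whole-gland Schwann-like cells 2 pathway genes were higher and 1 lower of 25, in pericyte-like cells 4 and 3 of 24, and in vascular smooth muscle-like cells 4 and 5 of 23, beside 10.8%, 24.3% and 16.7% of all genes called.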

How the data were processed

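Bulk RNA-seq of sorted fractions and single-cell RNA-seq were measured in 241 samples. For bulk samples the authors aligned reads with STAR 2.5.1b to rn6, counted them with HTSeq 0.6.1p1 without strand, and divided them by DESeq2 size factors, so the deposited bulk values are a normalised signal. They are not raw counts, so limma on log2(value + 1) was the main test. Each gene's spread was pooled over all groups in a fit. Whole reads were recovered for 100% of values at a tolerance of 0.001 and served edgeR and DESeq2 as alternatives. Rows that name no gene held 23.08 to 42.5% of reads in 85 samples and were left out. The deposited single-cell files are UMI counts from Cell Ranger 4.0.0 (sorted) and 7.0.0 (whole gland), which the authors filtered. In the sorted sets they kept cells without PTPRC and with keratin reads, which sets what these libraries can hold.

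Tests covered genes whose values summed to 10 or more. Cells were clustered with scanpy 1.11.5 (2000 variable genes, 30 components, 20 neighbours, Leiden resolution 0.8), clusters were named from listed markers, and UMIs were summed per rat and class with at least 10 cells, then tested with edgeR 4.0.16 quasi-likelihood. limma was 3.58.1 and DESeq2 1.42.0. Scrublet marked 0.471% of ACI cells, 2.39% in sorted SD and 0.590% in the whole gland. It has not worked in ACI, and elsewhere most calls came from 3 libraries (585 and 243 in sorted SD, 522 in the whole gland), so no cell was removed. P-values were Benjamini-Hochberg adjusted over all genes of a table. Members and gene lists were chosen with earlier results of these data known. Genes were named as the 5 members, the pathway genes past the threshold and other ligands and receptors of the family, some of which are not reported here. The basal and luminal fractions came from the same rats, by the labels. In simulated counts, limma recovered 16.4% of 2-fold, 73.1% of 4-fold and 86.4% of 8-fold changes in the ACI basal day-0 comparison (14569 genes). That simulation fitted only the 2 groups compared and changed only well-counted genes, and 8.6% of its calls were unchanged genes. The main test drew each gene's spread from all groups of the table, so these shares do not apply to it. The labels of 3 samples conflict (basal and luminal samples of 1 ACI day-7 rat, on treatment, and 1 CD45+ day-7 sample, on day), and most of their labels were followed. P-values measure the spread between these samples. Alternatives are given in the closing section, and 0 columns of per-sample values were unused.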

Additional observations from a re-analysis of the deposited data

Results flagged for a closer look

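In 110 groups of 4 to 10 samples, 6 held a sample far from the others by Dixon's criterion, and chance gives about 1 in 20 groups. BDNF was at 255.4 in 1 luminal sample of the estradiol set without estradiol (vehicle), and NGFR at 21.13, the lowest, in 1 luminal sample with estradiol (vehicle). NTRK2 was at 124.2 in 1 adult parous luminal TGFBRi rat and at 543.9 in 1 adult virgin luminal vehicle rat. NTRK3 was at 91.97 in 1 adult virgin luminal vehicle rat and, in whole-gland fibroblast-like cells, at 0.0483 UMIs per 10000 in 1 TGFBRi rat.

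In 4 cases the TGFBRi groups lay wholly above vehicle in one set and wholly below it in another, and these differences were not tested. NGFR in the basal fraction had a log2 difference of 0.893 in young ACI rats on day 0 and -1.13 in tumor-bearing NMU rats. NTRK3 in CD45+ cells had 3.65 in tumor-bearing NMU rats and -1.49 in ACI rats on day 7. NTF3 in basal-like cells had 4.15 in the whole gland and -0.188 in sorted ACI cells. NTRK3 in basal-like cells had 0.928 in the whole gland and -0.581 in sorted SD cells. Of all genes, 16.4% were higher without overlap in ACI basal day 0 and 12% lower in tumor-bearing NMU basal samples, and 6.35% were higher in tumor-bearing NMU CD45+ and 4.42% lower in ACI CD45+ day-7 samples. In basal-like cells 14.8% were higher in the whole gland, 38.1% lower in sorted ACI and 25.7% lower in sorted SD rats.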

How the results depend on the processing

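The count of members called for TGFBRi in bulk was 0 in limma, 5 with DESeq2, 3 when only the 2 groups compared were fitted, and 0 to 2 when 1 rat was left out. DESeq2 called NTRK2 in ACI basal and CD45+ day 0 and in the estradiol CD45+ tumor-bearing comparison, and BDNF and NTF3 in adult virgin basal. The count was 2 without replicate 2 of the CD45+ tumor-bearing estradiol TGFBRi rats, and 1 without luminal ACI day-0 TGFBRi replicate 3, adult virgin basal TGFBRi replicate 2 or luminal tumor-bearing estradiol TGFBRi replicate 2. Both tumor-bearing estradiol groups hold 2 rats, so there the spread came from the other groups and the lone rat was assumed to vary like them. The day 14 comparison gave 0, and 0 to 1 with 1 rat left out (1 without CD45+ day-0 vehicle replicate 1). Members called in single cells numbered 14, and 11 to 17 with 1 rat left out, both ends from leaving out whole-gland vehicle rats. At Leiden resolution 1.5 the vehicle level in vascular smooth muscle-like cells was 0.1235 for NTF3 (0.0712 at 0.8) and 0.2928 for NTRK3 (0.3737 at 0.8). With the replicate block the bulk TGFBRi count was 0 and the basal against luminal count 10 (9 without the block, 9 to 10 with 1 rat left out). The block and edgeR each called BDNF in ACI, which the unblocked limma fit did not, and edgeR did not call NTF3 in SD. Same-coded adult rats did not deviate together (1 of 21 pairs with r over 0.1), which cannot show what the shared code stands for. They were not paired in the main fit, and the block changed no TGFBRi call of a member. Whole-table counts moved most: 523 genes in ACI basal day 0 by limma, 362 with a pseudocount of 0.5, 76 with edgeR, 1235 with DESeq2 and 1638 in the fit of only these groups, and the split of higher and lower calls was 392 and 131 by limma but 30 and 46 by edgeR and 633 and 1005 in the fit of only these groups. The luminal day-0 count was 153, with 3 by edgeR and 1669 in that fit, the CD45+ day-0 count 420, with 192, 1031 by DESeq2 and 29, and the adult virgin basal count 1173, with 136 and, blocked, 825. The cause was not tested. BDNF and NTF3 rest on few UMIs in most classes, which limits their order.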
